A study of Mus musculus with 2 samples.

Results

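Early round spermatids rich in Ssxb transcripts are described here in mouse testis, as 1000 cell barcodes of 17311 that held at least 5000 UMIs (unique molecular identifiers, each counting 1 captured RNA molecule), and of 26466 barcodes in all. In each of 2 single-cell RNA libraries, the members were selected by rule as the 500 barcodes with the highest share of UMIs from 5 genes, Ssxb1, Ssxb2, Prss46, Ccdc166 and Zfp819, with ties kept in file order. Levels of these 5 genes are therefore a description of the choice, and so is every contrast of members with other barcodes. The high-fat library came from testicular tissue of male C57 BL/6 mice that ate high-fat feed, 60% of its kcal being fat, over 12 weeks. The mice were 5 weeks old at the start of the study and had 1 week of adaptation before the diet. The study also fed a group on maintenance feed for the same 12 weeks, with 10 of its 20 mice on each diet. The label of the other library names only testicular tissue and no diet, so it is called the unlabelled-diet library. Both were labelled germ cells, were made by droplet capture after collagenase IV digestion, and have no selection step for germ cells in their protocols. How many mice a library holds is not stated.

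Round spermatids are the haploid cells that form when spermatocytes complete the second meiotic division, before the head elongates and the chromatin is packed with protamines. Early in this stage the Golgi apparatus starts to build the acrosome, the enzyme-filled cap of the sperm head, and transcription driven by the activator CREM is high. Genes on the X and Y chromosomes are silenced in pachytene spermatocytes, the long stage of meiotic prophase, and a subset is transcribed again in spermatids. Spermatids of one clone stay joined by cytoplasmic bridges, through which many transcripts are shared between X-bearing and Y-bearing cells. Ssxb genes are X-linked mouse relatives of the human SSX genes, which encode nuclear repressors, are expressed mainly in testis and some tumours, and are fused to SS18 in synovial sarcoma. Prss46 is a testis member of the serine protease family, and Zfp819 encodes a KRAB zinc finger protein.

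The promoters of the rule genes are printed because 4 of the 5 were matched in RefSeq's table of the GRCm38.p6 build, and because the Ssxb1 and Ssxb2 windows are near copies. Each runs 5′ to 3′ on the gene's strand, from 250 bases before the start to 50 after it: chrX:8413055-8413354 on the plus strand for Ssxb1, chrX:8461677-8461976 on the minus strand for Ssxb2, chr9:110844256-110844555 on the plus strand for Prss46, and chr7:43606919-43607218 on the plus strand for Zfp819. In the first pair, capitals mark positions that differ in the alignment of the 2 windows. In Prss46, capitals mark GGCAAC, the reverse complement of the X-box core GTTGCC, and in Zfp819 CGTCA, the reverse complement of the CRE core TGACG.
Ssxb1: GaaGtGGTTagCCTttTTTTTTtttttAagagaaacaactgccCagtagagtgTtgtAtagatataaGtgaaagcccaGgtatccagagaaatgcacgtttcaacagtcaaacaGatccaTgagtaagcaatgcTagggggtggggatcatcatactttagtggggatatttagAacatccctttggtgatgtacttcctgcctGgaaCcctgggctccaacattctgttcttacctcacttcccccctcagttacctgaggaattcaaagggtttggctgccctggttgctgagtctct
Ssxb2: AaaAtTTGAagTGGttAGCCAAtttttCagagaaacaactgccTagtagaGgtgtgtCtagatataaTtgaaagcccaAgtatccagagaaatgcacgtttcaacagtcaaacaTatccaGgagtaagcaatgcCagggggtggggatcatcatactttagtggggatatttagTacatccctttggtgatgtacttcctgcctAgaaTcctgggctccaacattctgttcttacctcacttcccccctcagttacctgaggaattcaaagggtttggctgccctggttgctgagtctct
Prss46: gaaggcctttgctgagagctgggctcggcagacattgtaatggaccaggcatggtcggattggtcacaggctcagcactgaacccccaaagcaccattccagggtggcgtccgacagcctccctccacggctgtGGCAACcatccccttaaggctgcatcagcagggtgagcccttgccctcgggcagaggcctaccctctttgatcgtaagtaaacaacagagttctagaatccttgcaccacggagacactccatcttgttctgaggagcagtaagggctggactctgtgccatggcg
Zfp819: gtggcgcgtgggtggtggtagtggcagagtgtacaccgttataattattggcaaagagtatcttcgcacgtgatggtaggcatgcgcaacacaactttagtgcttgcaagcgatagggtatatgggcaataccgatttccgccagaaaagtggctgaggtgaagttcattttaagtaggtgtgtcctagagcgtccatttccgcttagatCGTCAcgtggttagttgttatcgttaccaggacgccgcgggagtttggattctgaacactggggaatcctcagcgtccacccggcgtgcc

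The Ssxb1 and Ssxb2 windows were identical at 273 of 301 aligned positions (90.7%). They did not differ over the last 91 bases, which are the 41 bases before the start and the 50 after it. Both strands of all 4 windows were searched for 4 motifs: the full CRE TGACGTCA, bound by CREM, its core TGACG, the X-box core GTTGCC, bound by RFX factors, and the TATA box TATAAA. None was in either Ssxb window, and these letters say nothing on factor binding. Of 32851 RefSeq promoters of this length, 1.79% held the full CRE, 20.8% its core (which every full CRE contains), 12.5% the X-box core and 13.6% the TATA box. Some transcripts are also close copies. The last 300 bases of the longest coding transcripts of Ssxb1 and Ssxb2 were 94.0% identical, and whole Ssxb1 and Ssxb10 transcripts were 96.4% identical. Others were less alike. Whole Ssxb1 and Ssxb2 transcripts were 71.3% identical, and the last 300 bases of Ssxb1 were 53.1% identical with those of Ssxb6 and 54.3% with those of Ssxb8. The division of counts among Ssxb genes that are close copies is therefore uncertain.

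The members had a median of 19676.5 UMIs in the high-fat library and 14345.5 in the unlabelled-diet library, with ranges of 5081 to 157144 and 5021 to 73208. Medians in the rest of the barcodes over 5000 UMIs were 20235 and 16189. Their summed counts were 11666297 UMIs in high-fat members and 7657687 in unlabelled-diet members. Among the members, 26 (5.2%) of the high-fat library and 10 (2%) of the unlabelled-diet library were among the 6% highest doublet scores of their library. Barcode names are running numbers, and 1507 names occur in both libraries, 3 of them as members in both. Levels are CPM, the count of a gene scaled to a fixed total of summed UMIs. Brackets hold exact 95% Poisson, binomial or Clopper-Pearson intervals, which cover counting error only. With 1 library per group no p-value can be given, and a 2-fold ratio is the size used, among genes averaging at least 50 CPM in the groups compared. CPM values compare groups for one gene, not one gene with another.

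The choice ended inside a gradient. Rule genes made up 0.157% of UMIs at rank 1 in the high-fat library, which were 8 of 5081 UMIs, and 0.162% in the unlabelled-diet library, 11 of 6774. At rank 500, just inside, the share was 0.0655% in the high-fat library and 0.0730% in the unlabelled-diet library. For the next barcode, just outside, the shares were the same to 3 digits. The cut itself was thus higher in the unlabelled-diet library, where 809 of 9745 barcodes (8.30% [7.76–8.87]) reached the high-fat cut. In the high-fat library, 309 of 7566 (4.08% [3.65–4.55]) reached the unlabelled-diet cut. After thinning each cell to 5000 UMIs, the median member had 4 rule UMIs in each library, with quartiles of 3 and 5.

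Prss46 dominated the choice by its abundance, with 73.1% of the rule counts in high-fat members and 74.9% in unlabelled-diet members. Its level was 567 CPM [553–581] in high-fat members, against 159.6 CPM in the rest of that library, and 642 CPM [624–660] in unlabelled-diet members, against 192 CPM in their rest. Ssxb1 stood at 50.8 CPM [46.8–55.1] in high-fat members, against 9.39 in the rest, and at 53.3 CPM [48.2–58.7] in unlabelled-diet members, against 12.5 in the rest. Ssxb2 was at nearly the same levels, 50.6 and 52.0 CPM in members, which was 6.28 [5.70–6.92] and 4.73 [4.24–5.27] times the rest. Ccdc166, which encodes a coiled-coil protein, had 67.9 CPM in high-fat members against 15.4 in the rest, and 62.8 CPM in unlabelled-diet members against 17.1. Zfp819 had 39.0 CPM in high-fat members against 10.2 in the rest, and 46.5 CPM in unlabelled-diet members against 11.3. All 5 were 3.35 to 6.28 times as high in members as in the rest.

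For comparison, 4 further groups were chosen in the same way, as the 500 barcodes of each library richest in markers of pachytene spermatocytes, meiotic divisions, middle round spermatids (lysozyme-like genes) and late round spermatids. The members shared 3 barcodes (0.6%) with the division group and 11 (2.2%) with the middle round group in the high-fat library, and 0 and 13 (2.6%) in the unlabelled-diet library. Ssxb1 and Ssxb2 were low on either side of the members. Members were chosen on the rule genes and the other groups were not, so a peak of these genes in members was built in. In the high-fat library, Ssxb1 had 1.51 CPM in the pachytene group, 8.45 in the division group, 50.8 in members, 3.56 in the middle round group and 0.871 in the late round group. The unlabelled-diet library gave 2.31, 5.11, 53.3, 3.25 and 1.16 CPM in the same order. Prss46 was broader: 35.2, 159.5, 567, 194 and 44.0 CPM in the high-fat library, and 38.7, 146, 642, 230.3 and 63.6 CPM in the unlabelled-diet library. It was still well above its pachytene level in the middle round group, where the Ssxb pair was low.

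**Figure D1:**
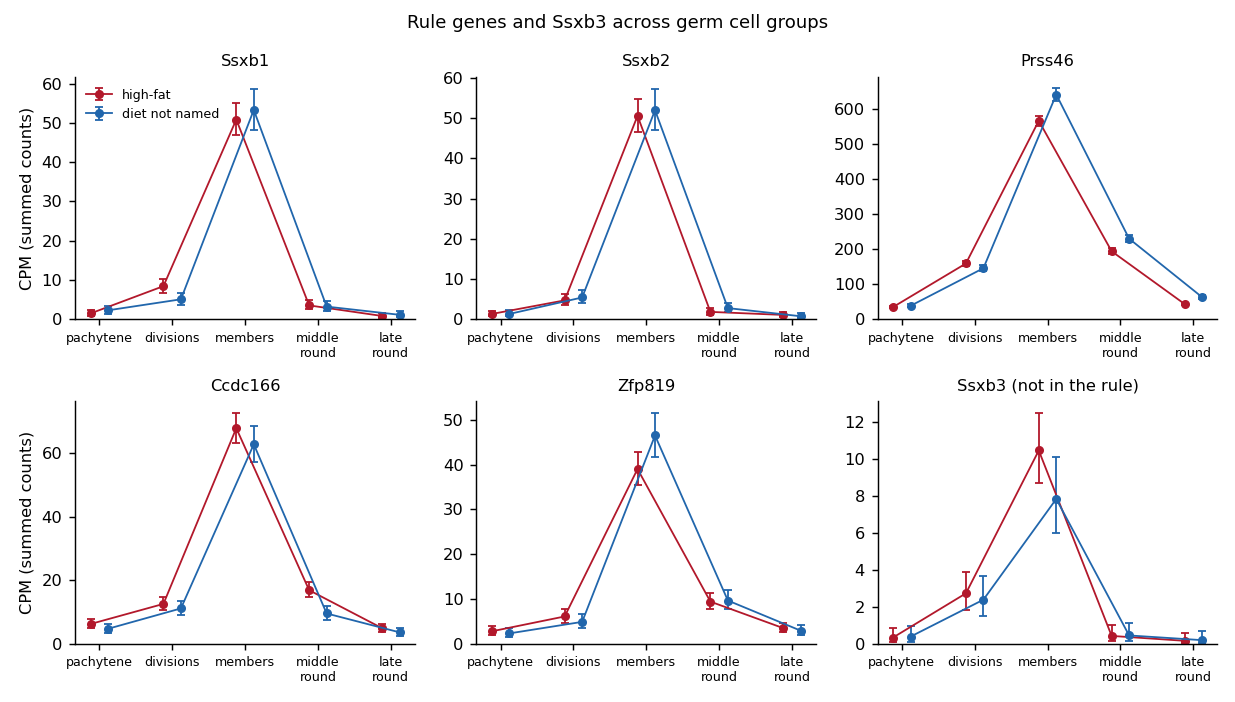
Summed level (CPM, linear axes) of the 5 rule genes and Ssxb3 in 5 groups of 500 barcodes in each library, with bars for exact 95% Poisson intervals and the high-fat library drawn left of the library whose diet is not named. Members were chosen on the first 5 genes; Ssxb3, which the rule did not use, also peaked in members, at 10.5 and 7.84 CPM.

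At matched depth the Ssxb pair was seen in a minority of single members. Of members thinned to 5000 UMIs, 21.8% [18.3–25.7] in the high-fat library and 22.8% [19.2–26.7] in the unlabelled-diet library had an Ssxb1 UMI, against 62.6% and 53.6% without thinning. In the pachytene groups, whose median depths were 15568.5 and 15853 UMIs, the thinned shares were 0.8% and 1.8%. Prss46 was seen in 96.2% and 97% of thinned members, and in 15.6% and 21.4% of thinned pachytene barcodes. Neither Ssxb gene had a UMI in 62.6% of thinned high-fat members and 58.6% of thinned unlabelled-diet members. Over members, counts of Ssxb1 and Ssxb2 had a Pearson r of 0.01 in the high-fat library and −0.01 in the unlabelled-diet library, in sparse counts that the rule had selected on their sum.

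Because a count that placed a barcode in the set also enters its level, members were ranked again on a random 50% of each barcode's UMIs and measured on the other 50%. This kept 316 of 500 members (63.2%) in the high-fat library and 262 (52.4%) in the unlabelled-diet library. Ssxb1 in the unused UMIs was 36.2 CPM in high-fat members, 3.64 times the rest [3.11–4.25], and 36.3 CPM in unlabelled-diet members, 2.66 times the rest [2.21–3.17]. In the UMIs that were ranked, the levels were 57.7 and 52.3 CPM. Prss46 in the unused UMIs was 2.53 and 2.00 times the rest, and Ccdc166 2.92 and 1.85 times. Levels in counts used for ranking were thus above those in unused counts, while the 5 genes remained higher in members than in the rest in unused UMIs of both libraries.

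Of the Ssxb paralogs outside the rule, Ssxb3, Ssxb6 and Ssxb8 were also highest in members among the 5 groups, at far lower counts. Ssxb3 had 10.5 CPM in high-fat members against 3.39 in the rest, a ratio of 3.08 [2.52–3.75], and 7.84 CPM in unlabelled-diet members against 3.81, a ratio of 2.06 [1.55–2.68]. Its level in the division groups was 2.73 and 2.38 CPM, and in the middle round groups 0.424 and 0.449 CPM. Ssxb8 had 4.80 CPM in high-fat members against 1.17 in the rest and 3.79 CPM in unlabelled-diet members against 1.24. Ssxb6 was at 3.17 and 3.27 CPM in members, with 37 and 25 counts. Ssxb5 had 24 and 10 counts and Ssxb10 17 and 11, too few to place among the groups. Ssxb9 had 3 counts in high-fat members and 0 in unlabelled-diet members, where 0 allows up to 3 counts.

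Levels of stage markers in members lay between those of the division and middle round groups. Those groups were the highest barcodes on division or middle round markers, Lyzl1 among them, so most barcodes chosen otherwise may lie between them too. The rest of the barcodes did so for the 9 round spermatid markers. These summed to 2080 CPM in the high-fat rest and 1920 in the unlabelled-diet rest, against 2273 and 2284 CPM in members. Such a position is therefore no test of the label of early round spermatids. Acrv1, the acrosomal protein SP-10, had 42.1 CPM in the pachytene group of the high-fat library, 52.6 in its division group, 499.6 in members, 1019.7 in the middle round group and 824 in the late round group. The unlabelled-diet series was 33.2, 40.6, 486, 915 and 831 CPM. Spaca1, an acrosomal membrane protein, followed the same course, with 500.8 and 503 CPM in members, and so did Lyzl1, a sperm lysozyme-like protein, with 340.4 and 276 CPM. Acrv1 was seen in 88.8% [85.7–91.4] of thinned high-fat members and 88.6% [85.5–91.3] of unlabelled-diet members, against 20.8% and 16.6% of pachytene barcodes. Crem had 638 CPM in high-fat members and 695 in unlabelled-diet members, close to the middle round groups at 679 and 702 CPM and above the pachytene groups at 256 and 261 CPM.

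Transcripts of earlier stages were present in members. The division group was chosen on 14 markers that include Ccna1 and Aurka, so lower levels of these in members were built in. Against the rest the difference was small. The 14 markers summed to 1814 CPM in high-fat members and 2007 in their rest, and to 1688 and 2009 CPM in the unlabelled-diet library. Ccna1, the germ cell cyclin A1 needed for the first meiotic division, had 673 CPM in the high-fat division group, 311 in members and 82.7 in the middle round group, and 606, 234 and 83.0 CPM in the unlabelled-diet library. The spindle kinase Aurka gave 700.3, 224 and 51.2 CPM in the high-fat library and 724, 232 and 55.2 CPM in the unlabelled-diet library. Sycp3, of the synaptonemal complex that pairs meiotic chromosomes, had 118 CPM in high-fat members and 69.2 in unlabelled-diet members, against 268 and 224 CPM in the division groups and 38.4 and 31.7 CPM in the middle round groups. Pou5f2, a POU factor of spermatocytes, was at 10.4 and 11.5 CPM in members, near its middle round level of 9.49 and 8.64 CPM.

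Genes of later stages were uneven in members. Over whole lists they were above the pachytene groups and far below the late round groups. The 5 late round markers summed to 264 CPM in the high-fat pachytene group, 1772 in members and 6595 in the late round group, and to 188, 1979 and 6876 CPM in the unlabelled-diet library. The 8 protamine and late chromatin genes summed to 809, 2020.4 and 59609 CPM in the high-fat library and to 425, 1694 and 43076 CPM in the unlabelled-diet library. Members had 959 and 1096 CPM of Gsg1, a germ cell membrane protein gene, against 126 and 98.4 CPM in the pachytene groups, and 615 and 709.5 CPM of Hils1, a spermatid linker histone gene, against 71.1 and 49.8 CPM. Single genes of these lists were lower. Prm1, the protamine that replaces histones in elongating spermatids, had 159.6 CPM in high-fat members and 70.3 in unlabelled-diet members. Its level was 136 and 70.7 CPM in the pachytene groups, a stage before its transcription starts, and 16104 and 10075 CPM in the late round groups. Thinned members with a Prm1 UMI were 56.2% and 31%, and thinned pachytene barcodes 54.2% and 31.2%. The source of Prm1 counts in either group was not tested. The cystatin gene Cst13 (10.5 and 5.88 CPM in members) and the serine kinase gene Tssk6 (6.69 and 4.57 CPM) were near their pachytene levels of 7.98 and 5.77 CPM and 6.55 and 4.52 CPM as well, against 508 and 557 CPM and 467 and 365 CPM in the late round groups.

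**Figure D2:**
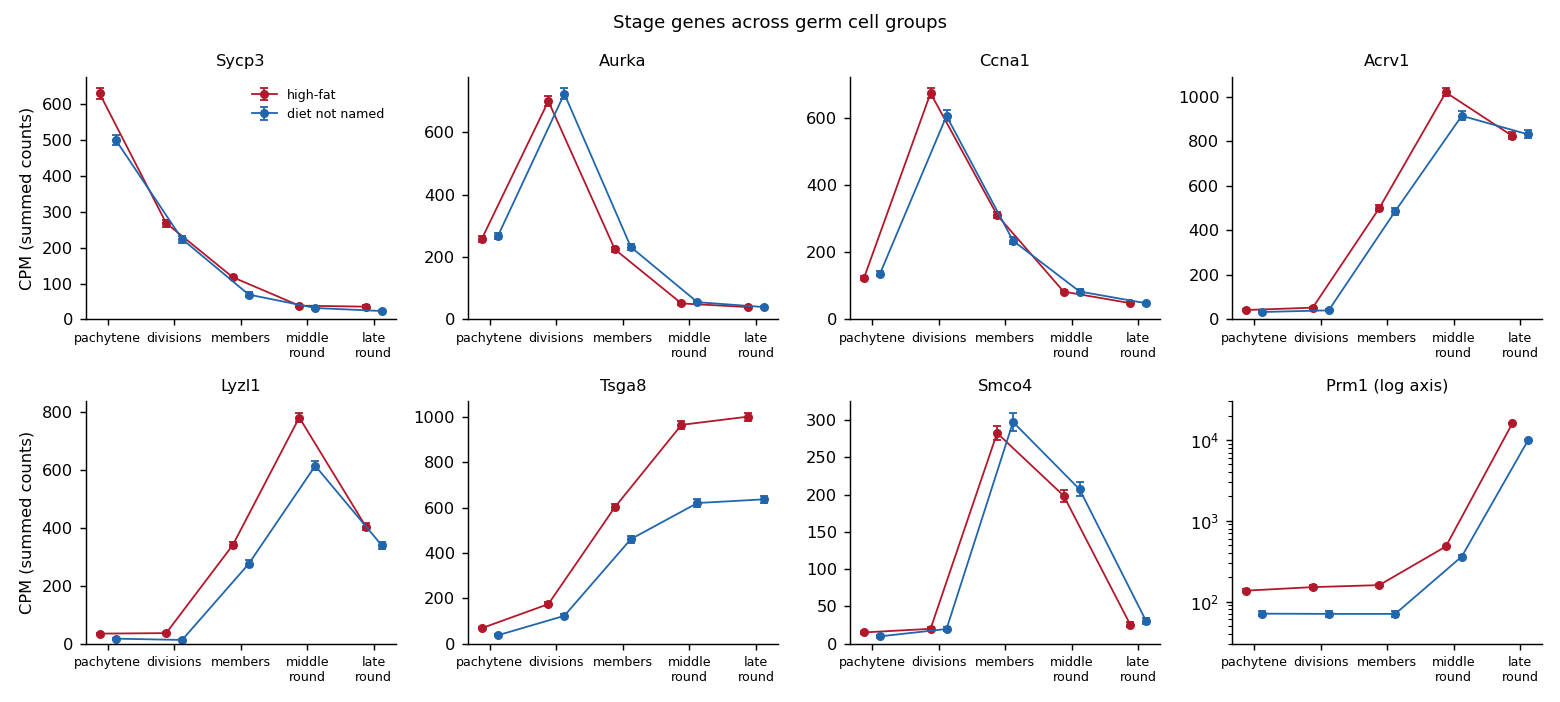
Summed level (CPM) of 8 stage genes in the same 5 groups of each library, with exact 95% Poisson intervals; the Prm1 axis is logarithmic and the others are linear. Members lie between the division and middle round groups for Aurka, Acrv1 and Lyzl1, Smco4 is highest in members (283 and 298 CPM), and Prm1 in members is near its pachytene level.

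Counted over whole lists, 9 round spermatid markers (including Acrv1, Spaca1 and Izumo1) summed to 2273 CPM in high-fat members, against 481 CPM in the pachytene group and 4805 CPM in the middle round group. In the unlabelled-diet library they summed to 2284 CPM in members, against 458 and 4660 CPM. Markers of other cell types were low. The 5 Leydig markers summed to 1.54 CPM in high-fat members and 1.18 in unlabelled-diet members, the 6 immune markers to 2.23 and 0.914 CPM, the 4 myoid markers to 3.94 and 3.13 CPM and the 5 endothelial markers to 6.00 and 4.83 CPM, each below the rest of its library. The 9 Sertoli markers summed to 26.7 and 16.1 CPM in members, against 49.4 and 19.3 CPM in the rest. The 5 interstitial stroma markers were at 2.74 CPM in high-fat members, against 5.63 in the rest, but at 12.5 CPM in unlabelled-diet members, against 9.13 in the rest, with 66 of the counts from the collagen gene Col1a1. Amh, Cd68 and Lyz2 had no count in members of either library.

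Among 3623 genes compared, 51 (1.41%) were at least 2-fold higher in members than in the rest in both libraries, and 149 (4.11%) were at least 2-fold lower. The rule used this contrast, so these counts describe the set, and the 51 became 16 when barcodes were ranked on Ssxb1 and Ssxb2 alone and 30 when cells were thinned. Beside the rule genes, the predicted gene Gm6588 led the higher genes, with 87.8 CPM in high-fat members, 4.07 times the rest, and 94.9 CPM in unlabelled-diet members, 2.88 times the rest. Smco4, which encodes a small single-pass membrane protein, had 283 and 298 CPM, 2.90 and 2.62 times the rest. Pole2, a subunit of DNA polymerase epsilon, was 3.25 and 2.32 times the rest, Zdhhc11, a palmitoyltransferase, 2.58 and 2.29 times, and Gnpda2, of amino sugar metabolism, 2.39 and 2.27 times. Nudcd2, Fam228b, Gm19935, Gm10376, Gm5458, Gm5800, 1700001F09Rik, 1700007K13Rik, 4930579F01Rik, 4921509A06Rik and BC061237 were also among the leading genes, with ratios between 2.24 and 3.17.

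The lowest ratios belonged to genes of later spermatids and, in 1 case, of spermatocytes. Prm1 was at 0.106 of the rest in high-fat members and 0.0883 in unlabelled-diet members. Tnp2, a transition protein, was at 0.113 and 0.103, Prm2 at 0.125 and 0.114, and Tuba8, a tubulin, at 0.141 and 0.103. Ube2t, a ubiquitin-conjugating enzyme of DNA crosslink repair, was at 0.142 and 0.144, and its level was 221 and 195 CPM in the pachytene groups, against 9.86 and 7.71 CPM in members.

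A narrower set of 15 genes of 3593 (0.417%) was at least 2-fold higher in members than in both the division group and the middle round group, in both libraries. Ssxb1, Ssxb2, Prss46 and Ccdc166 were among them. The others were Bub1, a kinase of the spindle checkpoint, Ccnc and Med21, both of the Mediator complex, Nxf1, the mRNA export receptor, Dync2li1, a dynein light intermediate chain of ciliary transport, Dcdc2a, Iqca, Gm3453, Gm5458, Gm6588 and 1700001F09Rik. These 11 were named after their values were seen. Bub1 had 83.2 CPM in high-fat members against 22.5 in the division group and 32.3 in the middle round group, and 80.1 CPM in unlabelled-diet members against 26.6 and 38.5. Med21 had 119.6 CPM in high-fat members against 42.5 and 37.9, and 106 CPM in unlabelled-diet members against 38.4 and 40.8.

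Nxf1 and Dync2li1 were also high before the divisions. Nxf1 had 54.1 CPM in the high-fat pachytene group, 27.1 in the division group, 60.3 in members and 18.1 in the middle round group. In the unlabelled-diet library the values were 49.5, 27.7, 57.9 and 19.1 CPM. Dync2li1 was 78.9, 47.9, 104 and 35.5 CPM in the high-fat library, and 57.3, 37.5, 91.3 and 35.1 CPM in the unlabelled-diet library. With ranking on a random 50% of the UMIs, 9 of the 15 remained: Bub1, Ccnc, Dcdc2a, Dync2li1, Gm3453, Gm5458, Gm6588, Med21 and Nxf1. The rule genes Ssxb1, Ssxb2 and Ccdc166 were below the minimum of 50 CPM in the unused UMIs, so they could not be counted whatever their ratios. Ssxb1, for one, was at 36.2 and 36.3 CPM there. Prss46 passed the minimum, at 431 and 402 CPM, but did not reach 2-fold over both groups in both libraries.

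Barcodes just outside the cut resembled the members in genes that the rule did not use. Smco4 had 304 CPM in the first 100 barcodes of the high-fat library, 289 in the next 150 and 273 in the next 250, which complete the members, then 281 in the 500 after the cut and 209 in the 1000 after those. The unlabelled-diet library gave 307, 316, 285, 264 and 249 CPM. Gm6588 was 84.0 and 85.6 CPM in the 500 after the cut, against 87.8 and 94.9 CPM in members. Ssxb3 was 11.3 and 7.3 CPM there, against 10.5 and 7.84 CPM in members. The 500 members per library are thus the top of a larger population and no count of early round spermatids.

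Members varied in their UMIs of division and middle round markers, though cells were not ordered in time. After thinning to 5000 UMIs, the median member had 9 UMIs of the 14 division markers and 8 of the 5 middle round markers in the high-fat library, and 8 and 7 UMIs in the unlabelled-diet library. Both lists were seen in 492 high-fat members (98.4%) and 491 unlabelled-diet members (98.2%). This does not set members apart from the middle round groups, where only 3.6% and 2.6% of barcodes lacked division marker UMIs. In the division groups 42.4% and 59.8% lacked middle round marker UMIs. Over members, those with more UMIs of one list had fewer of the other, with Pearson's r at −0.52 in the 500 high-fat members and −0.39 in the 500 unlabelled-diet members (Spearman's rho −0.53 and −0.38). These points share a fixed total of 5000 UMIs per cell, of which the 2 lists held few. Means were 9.37 division and 7.82 middle round UMIs in high-fat members, and 8.43 and 7.71 in unlabelled-diet members. The part of the fixed total in these correlations was not tested.

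Members were also set against the quartiles of both neighbouring groups. Those groups were chosen as the highest barcodes on the same markers, so their quartiles are high by construction and most barcodes chosen otherwise may fall below both. In the high-fat library 24 members (4.8%) had at least 18 division UMIs, the lower quartile of the division group, and 33 (6.6%) had at least 15 middle round UMIs, the lower quartile of the middle round group. In the unlabelled-diet library 11 (2.2%) and 42 (8.4%) did so, at quartiles of 18 and 14. The remaining 443 (88.6%) and 447 (89.4%) reached neither quartile, and 0 members reached both. UMIs of the Ssxb pair had r of 0.01 and 0.01 with the division markers and −0.09 and −0.07 with the middle round markers. As most thinned members had no UMI of the pair, and the rule selected on it, these values do not show whether the pair changes with these markers.

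**Figure D3:**
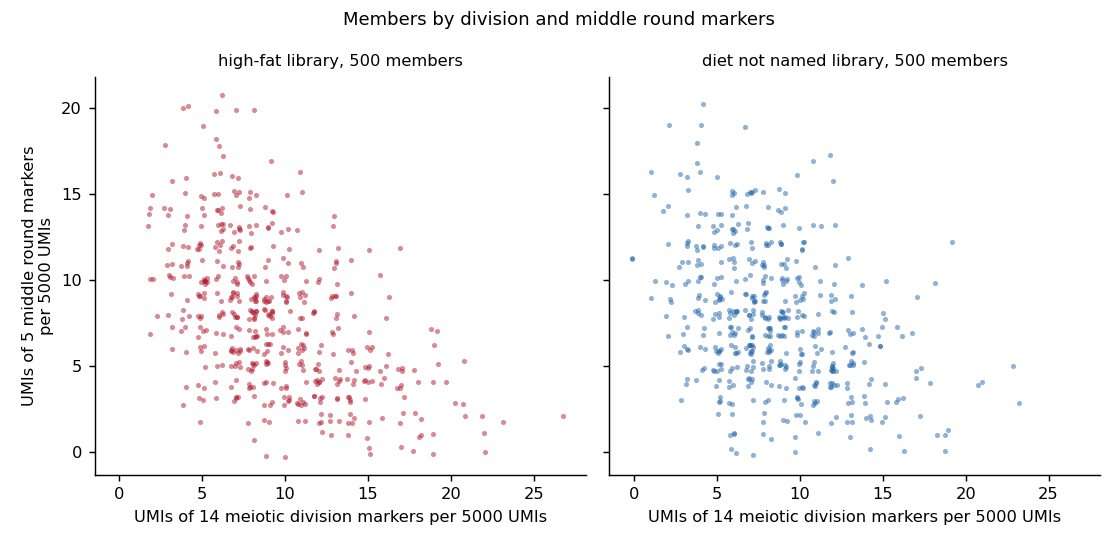
Each point is 1 member thinned to 5000 UMIs, with the UMIs of 14 meiotic division markers on the x axis and of 5 middle round markers on the y axis, spread by small random offsets, for the high-fat library on the left and the library whose diet is not named on the right. Most of the 500 members of each library hold UMIs of both lists, and those with most division UMIs have few middle round UMIs.

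Sex-linked transcripts were higher in members than in the meiotic groups, and so they were in the rest of the barcodes. In the rest, X-linked genes took 0.565% of UMIs in the high-fat library and 0.427% in the unlabelled-diet library. Y-linked genes took 0.0367% and 0.0280% there. X-linked genes took 0.161% of UMIs in the pachytene group of the high-fat library, 0.170% in its division group, 0.611% in members, 1.09% in the middle round group and 1.41% in the late round group. The unlabelled-diet library gave 0.135%, 0.164%, 0.556%, 0.814% and 0.969%. Y-linked genes took 0.00942%, 0.00912%, 0.0570%, 0.0759% and 0.0585% of UMIs in the high-fat library, and 0.00787%, 0.00889%, 0.0486%, 0.0490% and 0.0374% in the unlabelled-diet library. Ssxb1 and Ssxb2 are X-linked, and without them thinned members still had a median of 29 X-linked UMIs in the high-fat library and 27 in the unlabelled-diet library, against 8 and 7.5 in the division groups and 54 and 39 in the middle round groups.

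Genes were compared here if they averaged 50 CPM in members or in the pachytene group. X-linked genes low in the pachytene group could thus enter only by being high in members, which raises the share and medians below. Of 22 X-linked genes over 50 CPM, rule genes left out, 19 (86.4%) were at least 2-fold higher in members than in the pachytene group in both libraries. These values describe the genes that passed and do not show how widely the X-linked increase was spread. Over all 4258 genes compared, 875 (20.5%) were 2-fold higher there and 838 (19.7%) were 2-fold lower. The median log2 ratio of the 22 was 3.05 in the high-fat library and 3.77 in the unlabelled-diet library, against −0.14 and −0.15 for autosomal genes. Against the middle round group the median of the 22 was −0.86 and −0.55, so most were still below the level of the next group.

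Single sex-linked genes differed in timing. Tsga8, a spermatid nuclear protein gene on the X, had 68.7 CPM in the high-fat pachytene group, 175 in the division group, 603 in members and 966 in the middle round group, and 37.2, 123, 462 and 620.9 CPM in the unlabelled-diet library. Akap4, which anchors protein kinase A in the fibrous sheath of the tail, had 98.5 and 79.5 CPM in members, against 244 and 190.1 CPM in the middle round groups. Cypt1, of the cysteine-rich perinuclear theca family, had 134 and 113 CPM in members, against 401 and 272 CPM. On the Y, the translation factor gene Eif2s3y had 49.8 and 47.8 CPM in members, against 7.48 and 3.75 CPM in the pachytene groups. The helicase gene Ddx3y did not follow it, at 24.8 and 19.8 CPM in members and 30.6 and 24.9 CPM in the pachytene groups.

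In single members, X-linked UMIs were higher where middle round markers were higher, with r of 0.52 in the high-fat library and 0.33 in the unlabelled-diet library. They were lower where division markers were higher, with r of −0.50 and −0.34. Only Ssxb1 and Ssxb2 were left out of the X-linked UMIs, so any X-linked gene among these markers was counted on both sides. X-linked and Y-linked UMIs had r of 0.26 and 0.16, over cells that share 1 library and 1 depth per correlation. Ssxb1 and Ssxb2 UMIs had r of −0.03 and −0.05 with other X-linked UMIs.

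**Figure D4:**
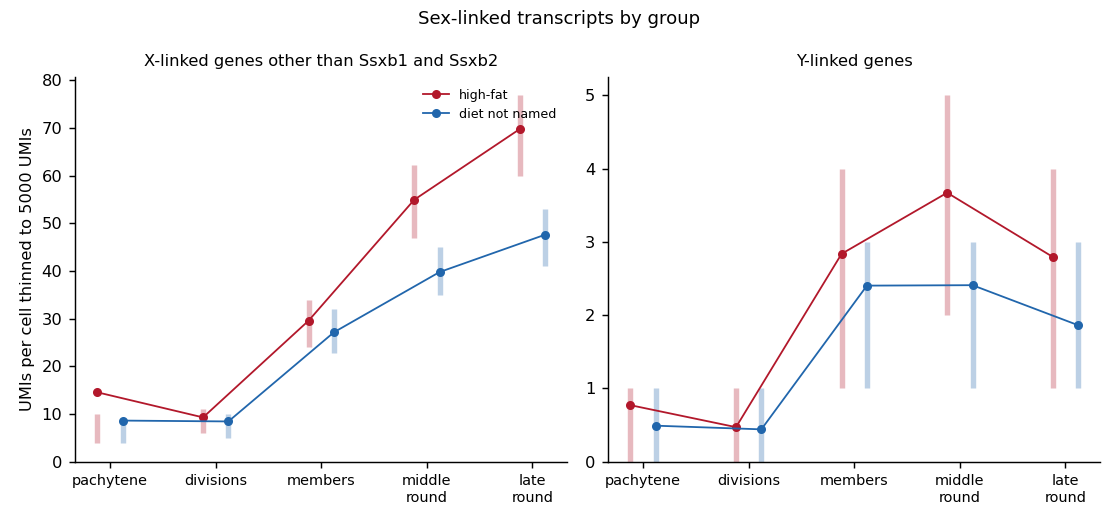
Mean UMIs per cell thinned to 5000 UMIs (points) with quartiles (wide bars) for X-linked genes other than Ssxb1 and Ssxb2 and for Y-linked genes, in 5 groups of 500 barcodes of each library. Members average 29.6 and 27.2 X-linked and 2.84 and 2.40 Y-linked UMIs, between the low division groups and, for X, the higher middle round groups.

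High-fat members were then set against unlabelled-diet members, which bears on the study's question of how a long high-fat diet affects spermatogenesis. Rule genes were chosen to be high in each library, so their ratios describe the 2 cuts: log2 −0.07 for Ssxb1, −0.04 for Ssxb2, −0.18 for Prss46, 0.11 for Ccdc166 and −0.25 for Zfp819. Of 3284 genes, 75 (2.28%) were at least 2-fold higher in high-fat members and 50 (1.52%) at least 2-fold lower. Most of these ratios were not particular to members: 63 of the 75 (84%) and 41 of the 50 (82%) were also past 2-fold in the rest of the barcodes. In all 4 other germ cell groups 46 (61.3%) and 27 (54%) were past it. Symbols beginning with Gm, ending in Rik, or of ribosomal protein genes and numbered pseudogenes made up 35 (46.7%) of the higher and 21 (42%) of the lower genes, against 536 (16.3%) of all genes compared.

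The extreme ratios had the same size in members and in the rest. 4933432K03Rik had 424 CPM in high-fat members and 3 counts, 0.392 CPM, in unlabelled-diet members. Dynlt1f, of a dynein light chain family with near-identical copies, had 239 CPM in high-fat members and 2.87 CPM in unlabelled-diet members, a log2 ratio of 6.38 against 6.35 in the rest. The ribosomal protein gene Rpl26 had 778 and 37.3 CPM, a log2 ratio of 4.38 against 4.45 in the rest. Lsm10, of the U7 particle that processes histone mRNA, had 49.5 CPM in high-fat members and 1068 CPM in unlabelled-diet members, a log2 ratio of −4.43 against −4.42 in the rest. Rsph1, a radial spoke protein of the axoneme, had 1999 and 5465 CPM, a ratio of 0.366 against 0.353 in the rest.

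A few genes stood apart from the rest of the library, and were named after their values were seen. Rnls, which encodes the flavoprotein renalase, had 127 CPM in high-fat members and 14.8 CPM in unlabelled-diet members, a ratio of 8.59 [7.09–10.5], while the ratio in the rest was 2.53 (178 and 70.1 CPM). Eif1b, a translation initiation factor gene, had 191 and 90.4 CPM, a ratio of 2.11 [1.94–2.31], against 1.19 in the rest. Pttg1, the securin that holds back sister chromatid separation, had 188 and 130.1 CPM, a log2 ratio of 0.53, against −0.11 in the rest. Sycp3 had 118 and 69.2 CPM, a log2 ratio of 0.76 against 0.32, and Ccna1 311 and 234 CPM, a log2 ratio of 0.41 against 0.12. In the other direction, Cep112, a centrosomal protein gene, had 179 and 239 CPM, a log2 ratio of −0.42 against 0.29 in the rest, and Cfap97d1, a cilia and flagella associated gene, 49.1 and 70.6 CPM, −0.52 against 0.17. With 1 library per group, none of these can be told apart from differences between any 2 libraries. The 14 division markers summed to 1814 CPM in high-fat members and 1688 CPM in unlabelled-diet members, and the part of such a shift in these ratios was not tested.

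**Figure D5:**
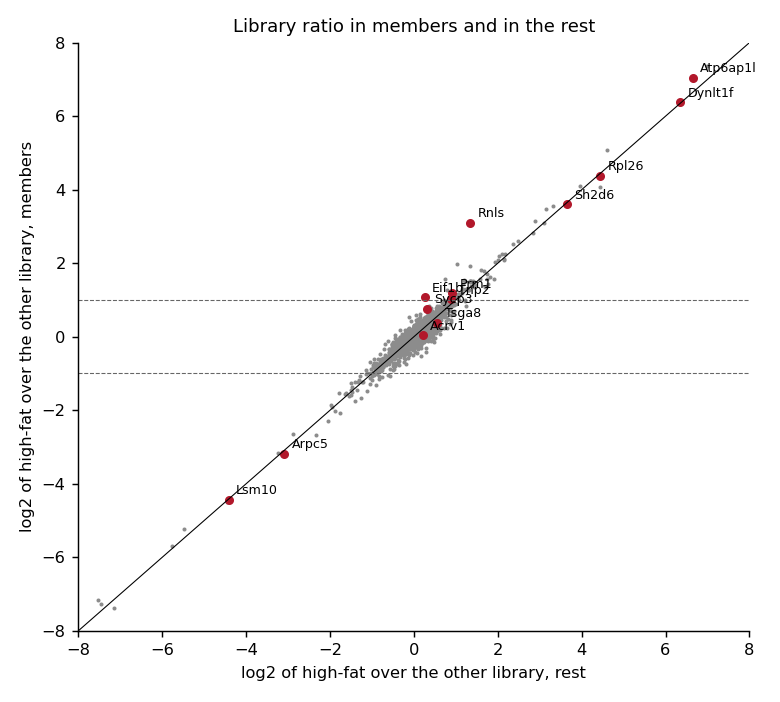
Each point is a gene averaging at least 50 CPM in members, with the log2 ratio of the high-fat over the other library in the rest of the barcodes on the x axis and in members on the y axis; the diagonal marks equal ratios and dashed lines mark 2-fold, and 4 genes lie outside the axes. Extreme genes such as Dynlt1f, Rpl26 and Lsm10 lie on the diagonal, and Rnls (3.10 in members, 1.34 in the rest) lies above it.

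Gene groups of early spermatid life differed little between the libraries' members. The median log2 ratio over all 3284 genes was 0.01. Over 15 acrosome formation genes it was −0.08, with single genes between −0.49 and 0.07, and over 12 spermatid transcription factors 0.03. It was −0.04 over 9 genes of the chromatoid body, a store of germ cell RNA, and −0.01 over 9 division genes. Medians were −0.05 for 6 CatSper channel subunits, 0.03 for 4 testis serine kinases, 0.15 for 4 sperm-egg fusion genes and −0.02 for 9 outer dense fibre and sheath genes. The 18 axoneme genes had a median of −0.06, with Rsph1 past 2-fold. The 5 Prss genes over 50 CPM had a median of 0.08, and Prss54 had 399 and 223 CPM, a log2 ratio of 0.84, against 0.79 in the rest.

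Medians were 0.14 for 5 lysozyme-like genes, −0.14 for 4 synaptonemal complex genes, 0.06 for 12 ubiquitin and proteasome genes and 0.28 for the 2 of 22 listed X-linked spermatid genes that reached 50 CPM. No gene of the Y-linked and dissociation response lists reached 50 CPM, and 1 apoptosis gene did.

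Medians of metabolic and stress lists were likewise near 0, while single genes were spread around them. Single antioxidant genes had log2 ratios between −0.79 and 0.58, and single germ cell glycolysis genes between −0.48 and 0.43. The median log2 ratio was 0.01 for 11 germ cell glycolysis genes, 0.03 for 14 oxidative phosphorylation genes, −0.00 for 8 antioxidant genes and 0.05 for 9 endoplasmic reticulum chaperones. Over 7 heat shock genes it was 0.16, with 6 of them above 0 and none past 2-fold. Of 20 fatty acid oxidation genes only 3 reached 50 CPM, and of 20 lipid storage and synthesis genes 8 did, with medians of −0.02 and 0.03. Pnpla2, the triglyceride lipase ATGL, had 344 CPM in high-fat members and 175 CPM in unlabelled-diet members, a log2 ratio of 0.98. Its level in the rest was 303 and 171 CPM, so the difference was not confined to members.

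Protamine and late chromatin genes gave the highest list median, 0.82 over 8 genes, with Prm1 (log2 1.18) and Tnp2 (1.01) past 2-fold. The median became 0.45 with a minimum of 2000 UMIs per barcode and 0.20 with ranking on Ssxb1 and Ssxb2 alone, and with a minimum of 200 CPM, which fewer genes pass, it was −0.0742. In the pachytene groups the median of the same list was 0.95 and in the rest 0.67. Hils1 (log2 −0.21) and Prm3 (−0.07) of the same list were lower in high-fat members.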

How the data were processed

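Single-cell RNA was measured in 2 libraries, 1 per group. The deposited values are whole-number UMI counts per gene and barcode with no normalisation, written by PISA 1.0 per the file headers. Cell Ranger 2.1.1 is named per the submitters' processing notes. The aligner was not given, and neither were build and annotation, in the sources used here. Barcodes, genes and gene lists were chosen with earlier results of these data known.

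Counts were summed over members and over other barcodes with at least 5000 UMIs, and divided into CPM. Shares of cells used a random draw of 5000 UMIs per cell. The 3284 genes compared between libraries averaged at least 50 CPM in members. A gene missing from 1 file was set to 0 there, and a count of 3 was the floor. Doublets were scored with Scrublet in scanpy 1.11.5. Its automatic threshold called 0 barcodes in the high-fat library and 652 in the unlabelled-diet library, so the 6% highest scores of each (760 and 828) were marked instead, and left out only in an alternative. Named genes were the rule genes, the 20 highest and 10 lowest ratios of members over the rest, the 10 highest and 10 lowest ratios between libraries, and the extremes of 26 gene lists. Genes 2-fold over both neighbouring groups, genes standing apart from the rest and some stage genes were added after their values were seen. Promoters were RefSeq's, of GRCm38.p6, and transcripts and chromosomes GENCODE M21's. The counting was tested on simulated data, where planted members had rule genes raised further than seen here and all other barcodes shared the same profile. That test does not cover members cut from a gradient. Scripts ran in Python 3.11.15 with pandas 2.3.3, numpy 2.4.6, scipy 1.17.1 and, for figures, matplotlib 3.10.9. Cells are not replicates, so no p-value was computed.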

Additional observations from a re-analysis of the deposited data

How the results depend on the processing

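Apart from the settings named here, the counts of genes, the X-linked shares and the acrosome and protamine medians differed by less than 1.5 times or by less than counting error. With a minimum of 10 CPM the genes compared between libraries that were 2-fold higher in high-fat members became 313 (75 at 50 CPM) and the lower ones 265 (50). Those higher in members than in the rest became 129 (51), lower 708 (149), over both neighbouring groups 49 (15), over the pachytene group 1897 (875) and under it 2451 (838). With a minimum of 200 CPM the same counts were 17, 14, 8, 18, 1, 276 and 157, and the protamine median was −0.0742, because the minimum sets how many genes are compared. Ranking on Ssxb1 and Ssxb2 alone gave 16 genes over the rest and a protamine median of 0.20, and thinning gave 30 genes over the rest. A minimum of 2000 UMIs gave a protamine median of 0.45, against 0.82. Ranking on a random 50% of the UMIs, chosen after seeing the data, gave 9 genes over both neighbouring groups, all among the 15, and 67 of the 75 and 45 of the 50 genes between libraries. Except for the minimum CPM and the random 50%, the cause of these moves was not tested.

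The X-linked share of high-fat members (0.611%) became 0.624% with a minimum of 2000 UMIs, 0.628% ranked without the Ssxb pair, 0.553% ranked on that pair, 0.620% with one share cut, 0.606% with cells weighted equally and 0.601% when thinned. In unlabelled-diet members (0.556%) it became 0.572% with 250 members, 0.565% with 2000 UMIs and 0.519% ranked on the Ssxb pair. Of 2965 other values over 14 settings, 2521 stayed within their counting interval, 444 did not, and 0 with a 2-fold value changed sign.

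No paired analysis was possible because each group has 1 library, and for the same reason leaving out a replicate was not run. The diet of 1 library is unlabelled, library and diet cannot be told apart, and paralogous counts are uncertain. In members, 3 counts are the limit that 0 allows.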
